A study of Mus musculus with 24 samples.

Results

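The hearts described here are 12 of the 24 whole mouse hearts sequenced in the study: 6 cSirt5-/- hearts (labelled cSirt5KO) taken 12 weeks after transverse aortic constriction (TAC), and 6 cSirt5-/- hearts taken 12 weeks after the Sham operation, the same surgery without the clip. They were chosen by the genotype and treatment in their labels, and each label carries its own animal number. All mice were male, and their age is not given in the sources used here. In cSirt5-/- mice, the recombinase driven by the Myh6 promoter removes Sirt5 from cardiomyocytes, so the other cells of the heart keep the gene. Both cSirt5-/- groups carry the recombinase. The 6 control Sham and 6 control TAC hearts, from transgenic mice without it, enter the fit and serve where the size of a change is set against that of controls. Whether TAC changes the transcriptome of hearts without cardiomyocyte SIRT5, and which genes carry the change, is the question of this comparison.

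SIRT5 is a mitochondrial enzyme that removes succinyl, malonyl and glutaryl groups from lysines of metabolic proteins. TAC narrows the aorta, so that the left ventricle pumps against a raised pressure. Cardiomyocytes under such a load are known to enlarge and to take up genes of the fetal heart again, fibroblasts to deposit matrix, and genes of mitochondrial fuel oxidation to decline.

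The values are reads per gene divided by the authors' size factors, here called normalized counts. Depth was 22.5 to 31.6 M reads in the 6 Sham and 25.0 to 32.8 M reads in the 6 TAC libraries. Sirt5 itself did not separate the hearts by surgery. Its normalized count ran from 85.6 over a median of 110 to 259 in Sham hearts and from 95.8 over a median of 124 to 886 in TAC hearts. TAC replicates 2 and 4 held 886 and 499, where the 12 control hearts held 388 to 807, so these libraries go against their genotype label, and results are given with and without them. Without them the log2 fold change of Sirt5 was −0.14 (adjusted p = 0.875 from limma). The libraries also fall into 2 sets by the share of reads on the opposite strand of highly expressed genes. Sham replicates 1 to 4 and TAC replicates 5 and 6 form set 1, and the other 6 form set 2. By animal number, TAC replicates 1 and 2 come from a low series and Sham replicates 3 to 6 from a high one, and only the middle series, with Sham replicates 1 and 2 and TAC replicates 3 to 6, holds both surgeries. The part of set and animal number in the results was not tested beyond the fits named below.

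In cSirt5-/- hearts, single genes passed the test after TAC, and gene lists were described by counts and medians without a test of their own. Among those that rose were Acta1 (skeletal muscle actin), Edn3 (endothelin 3) and the collagen genes Col8a1 and Col5a2. Among those that fell were Mylk4 (a myosin light chain kinase family gene), Ppargc1a (a mitochondrial co-activator) and Penk (an opioid precursor). Of 24239 genes tested by limma on log2(normalized count + 1), 61 (0.252%) rose and 102 (0.421%) fell after TAC at an adjusted p under 0.1 and more than 1.5-fold. Of these 163 genes, 97 had a mean of at least 100 and 32 a mean under 10. The 6 TAC hearts lay above all 6 Sham hearts for 82 genes (0.338%) and below all of them for 134 (0.553%), and 62 of the 163 called genes were among those. The edgeR test on the recovered reads called 62 genes higher (0.256%) and 84 lower (0.347%), and DESeq2, which gave an adjusted p for 15778 genes, called 0.735% of them higher and 1.13% lower. At an unadjusted p under 0.05 from limma there were 2772 of the 24239 genes, both directions together. List counts at that limit below are to be read against this background.

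**Figure D1:**
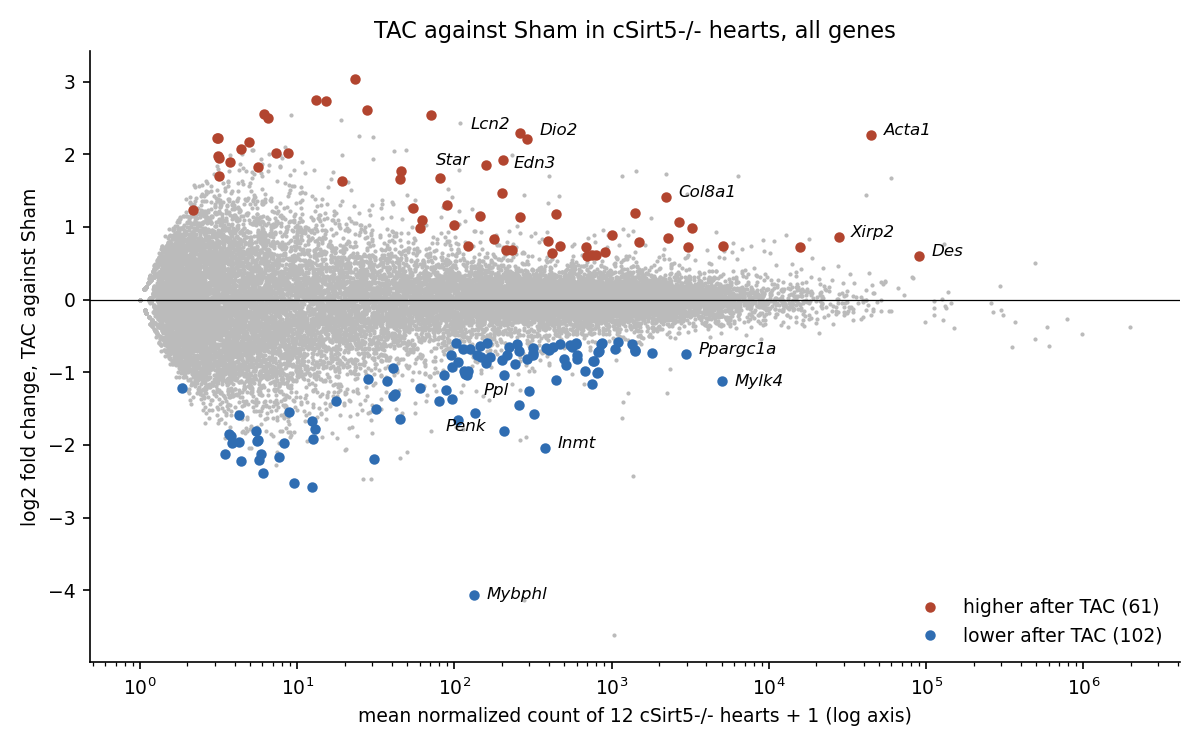
Log2 fold change (TAC against Sham, vertical axis) of each of 24239 genes in cSirt5-/- hearts against its mean normalized count (+ 1, log axis). The 61 genes that rose are red, the 102 that fell are blue and the rest grey. Acta1, with a mean of 44870, combines a high level with a log2 fold change of 2.26.

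Without TAC replicates 2 and 4, 54 genes rose (0.223%) and 79 fell (0.326%), and 84 of these 133 were among the 163. All 163 kept their direction, which tests nothing since they were called on these hearts, and 87 of them kept an adjusted p under 0.1. Fitted on the 12 cSirt5-/- libraries alone, 20 genes rose and 39 fell, 53 of them among the 163. Single hearts weighed heavily. Leaving out Sham replicate 4 left 11 genes higher and 22 lower, whereas leaving out Sham replicate 5 gave 104 and 135. Without TAC replicate 1 the counts were 23 and 50, and without TAC replicate 5 they were 17 and 51. Without Sham replicates 1 or 2 they were 26 and 66, or 22 and 55, and without Sham replicate 3 they were 41 and 57.

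**Figure D2:**
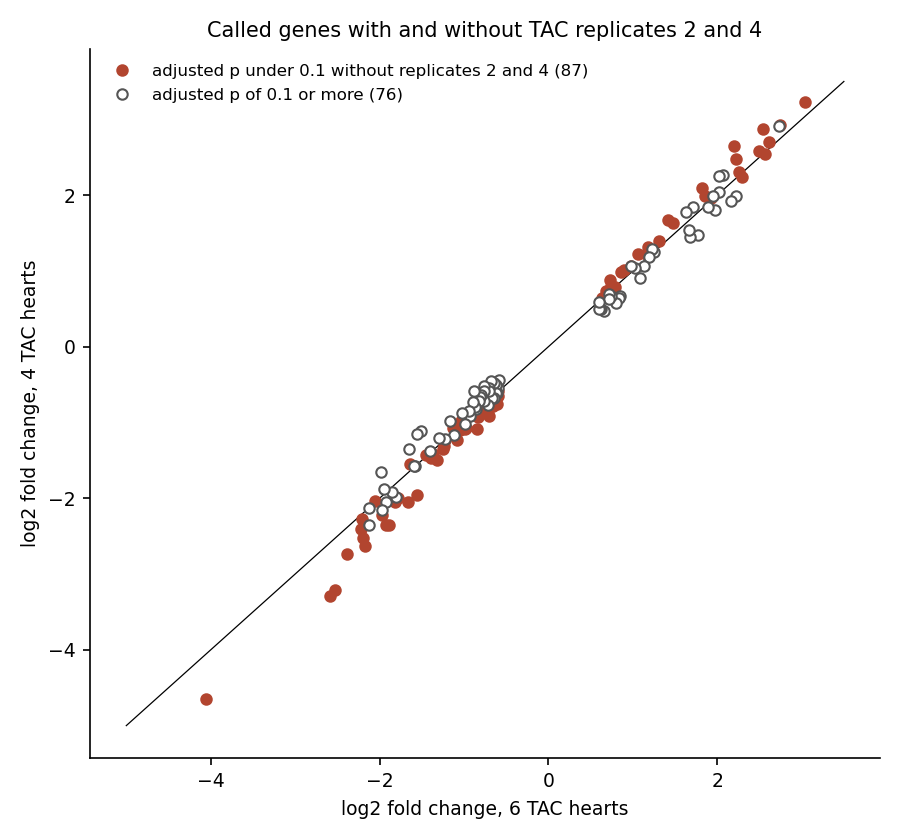
Log2 fold change of the 163 called genes from 6 TAC hearts (horizontal axis) and from 4 TAC hearts, without replicates 2 and 4 (vertical axis), each against 6 Sham hearts; the line marks equal values. The 87 filled points kept an adjusted p under 0.1, the 76 open points did not, and every point stayed on its side of 0.

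Of 22 hypertrophy and fetal programme genes, 17 had a positive log2 fold change and 2 passed with limma. Acta1 encodes skeletal muscle actin, a fetal isoform in the mouse heart. Its normalized count ran from 7618 over a median of 10714 to 34162 in Sham and from 28967 over 69312 to 129998 in TAC hearts. Apart from TAC replicate 2, which lay below the 34162 of Sham replicate 3, the groups did not overlap. The log2 fold change was 2.26 (standard error 0.44, adjusted p = 0.0255 from limma), and 2.30 without TAC replicates 2 and 4. It was 2.38 within library set 1 and 2.16 within set 2. Xirp2, an actin-binding protein of the intercalated disc, rose by 0.86 (standard error 0.23, adjusted p = 0.0898), from 11811 to 25065 in Sham and 23515 to 56845 in TAC hearts. Desmin (Des), the intermediate filament that ties Z-discs together, rose by 0.60 (adjusted p = 0.0842) and lost the call without TAC replicates 2 and 4 (adjusted p = 0.163).

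Acta1 and Xirp2 are shown with the sequence before their start sites, since they were the 2 of 22 hypertrophy and fetal programme genes that passed the test. The runs are the 250 bases upstream of the RefSeq start in GRCm38.p6, read in the direction of the gene. They come from chr8:123894776-123895025 (minus strand) for Acta1 and chr2:67445752-67446001 (plus strand) for Xirp2. Capitals mark matches to the CArG box of serum response factor, the MEF2 site and the M-CAT core (CATTCC, or GGAATG on the other strand), each searched on both strands.
Acta1: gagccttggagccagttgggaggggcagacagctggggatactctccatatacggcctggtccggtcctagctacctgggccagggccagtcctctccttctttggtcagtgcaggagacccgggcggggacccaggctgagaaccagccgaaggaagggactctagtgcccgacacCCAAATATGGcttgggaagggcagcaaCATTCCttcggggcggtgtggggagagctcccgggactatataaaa
Xirp2: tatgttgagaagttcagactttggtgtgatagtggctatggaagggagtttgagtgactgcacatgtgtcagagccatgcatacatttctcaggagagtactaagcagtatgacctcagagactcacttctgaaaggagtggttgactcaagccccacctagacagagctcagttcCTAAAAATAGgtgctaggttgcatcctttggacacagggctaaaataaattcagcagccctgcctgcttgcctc
The Acta1 window held 1 CArG box and 1 M-CAT core, and the Xirp2 window 1 MEF2 site, with no overlap between the matches. Of 27025 promoter windows of this length, 1.40% held a CArG box, 0.518% a MEF2 site and 12.6% an M-CAT core. Among called genes with a window, the CArG box occurred in 2 of 45 that rose and in 0 of 68 that fell. The MEF2 site occurred in 1 and 0 of them, and the M-CAT core in 5 and 8.

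No other gene of the fetal programme list passed with limma or edgeR, while DESeq2 called 7 of the 22 higher, and 13 were higher and 1 lower at an unadjusted p under 0.05. Myh7, the beta-myosin heavy chain that the mouse ventricle uses before birth, ran from 8104 over 23257 to 61404 in Sham hearts and from 18176 over 68915 to 200735 in TAC hearts. TAC replicate 2, at 18176, lay below 4 of the 6 Sham hearts. The adjusted p of Myh7 was 0.105 with all hearts and 0.0576 without TAC replicates 2 and 4. Its log2 fold change was 2.77 within library set 1 and 0.50 within set 2. For Nppa and Nppb, the natriuretic peptide genes, the log2 fold changes were 1.44 (adjusted p = 0.216) and 0.89 (adjusted p = 0.234), and Ankrd1, a stretch-responsive cofactor, one of 0.76 (adjusted p = 0.149). The median over the 22 listed genes was 0.60, where the median over all genes was −0.01. In control hearts the same list had a median of 0.97, and 15 of its genes rose, where 916 of all genes rose (3.78%) and 789 fell (3.26%). No gene of the list passed the interaction test, which asks whether the TAC effect differed between genotypes.

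**Figure D3:**
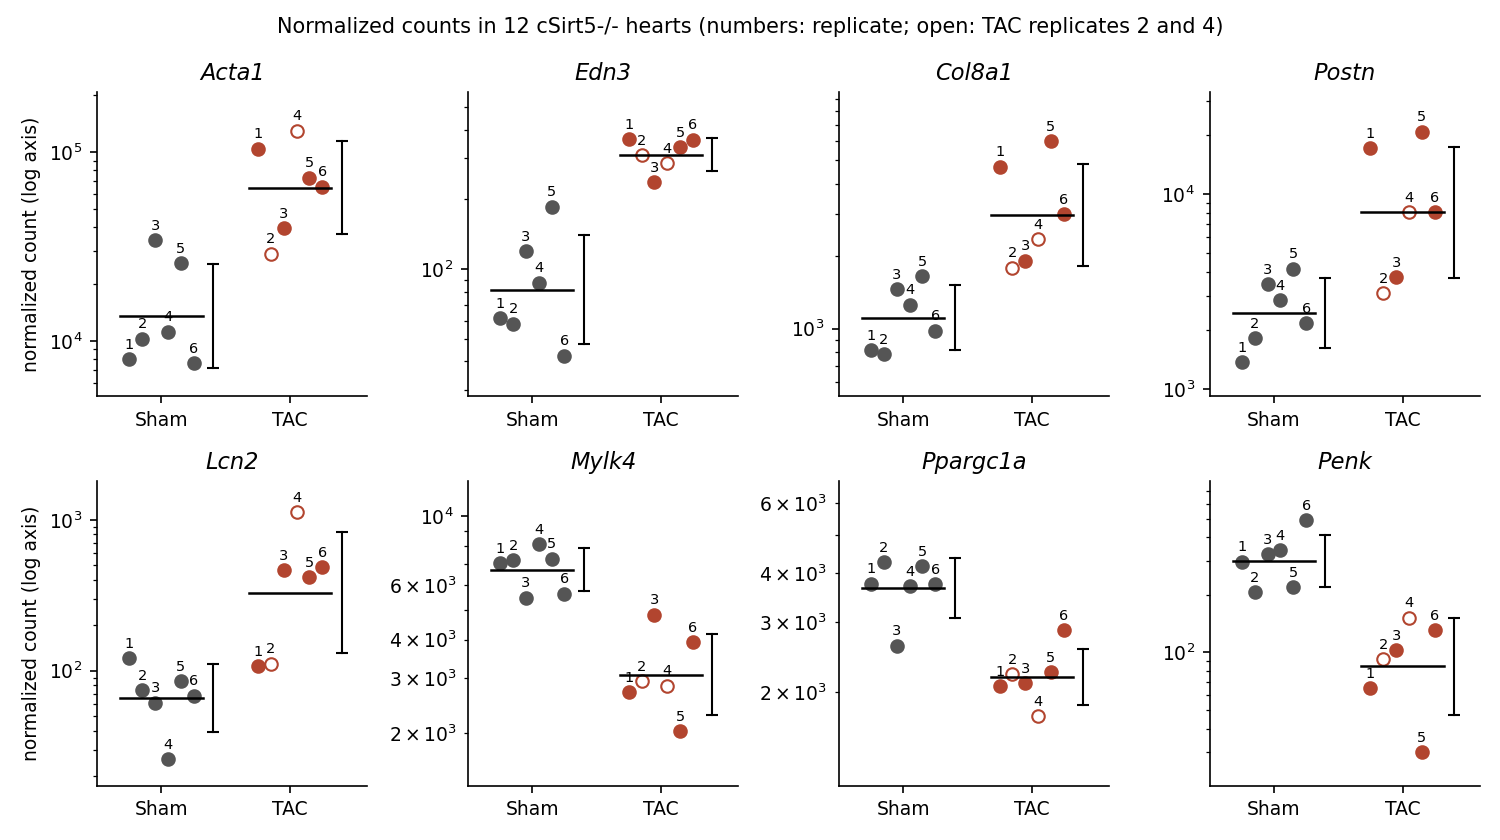
Normalized counts (log axes) of 8 genes in the 6 Sham and 6 TAC cSirt5-/- hearts; each point is a heart with its replicate number, bars are geometric means, whiskers are 1 SD on the log2 scale, and open points are TAC replicates 2 and 4. Edn3, Col8a1, Mylk4 and Penk did not overlap between groups, whereas TAC replicates 2 and 3 lay among the Sham hearts for Postn.

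Edn3, which encodes the vasoactive peptide endothelin 3 (chromosome 2, 174602412 to 174625835 in GRCm39), had the lowest adjusted p of the genes named by rule. Sham hearts held 42.3 to 186 normalized counts of Edn3 with a median of 74.4, and TAC hearts 237 to 363 with a median of 323. The 6 TAC hearts were close together and all above the Sham hearts. The log2 fold change was 1.92 (standard error 0.30, adjusted p = 0.00687 from limma), 1.96 without TAC replicates 2 and 4, and 2.14 and 1.72 within the 2 library sets. It also passed in the fit on the 12 cSirt5-/- libraries alone (adjusted p = 0.0476). Of the other 32 genes listed for adrenergic, renin-angiotensin and endothelin signalling, Penk alone passed with limma or edgeR. DESeq2 called 3 of the 33 higher and 2 lower, and 5 were higher and 6 lower at an unadjusted p under 0.05.

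Other genes that rose belong to no common list. Star, which carries cholesterol into mitochondria for steroid synthesis, was 25.6 to 106 in Sham and 131 to 380 in TAC hearts (log2 fold change 1.85, standard error 0.39, adjusted p = 0.0324). Dio2, the deiodinase that makes active thyroid hormone, had a median of 83.9 in Sham and 403 in TAC hearts. TAC replicates 2 and 3 held 101.7 and 116.4 of Dio2, within the Sham range of 38.4 to 144, whereas TAC replicates 1 and 5 held 821 and 1133. The log2 fold change of Dio2 was 2.20 (adjusted p = 0.0560), and 3.35 and 1.51 within the library sets. Frzb, a secreted Wnt antagonist, did not overlap between groups (173 to 306 and 318 to 1141), with a log2 fold change of 1.17 (adjusted p = 0.0951). Aqp8, a water channel, rose by 1.13 from 109 to 207 in Sham and 258 to 498 in TAC hearts. Its adjusted p went from 0.0744 to 0.166 without TAC replicates 2 and 4. Nlrc3, a cytosolic sensor of the NOD-like family, rose by 1.47 (adjusted p = 0.0589), and Tmem45a by 1.15 (adjusted p = 0.0489). Bambi, a decoy receptor of TGF-beta signalling, was named after its values were seen. It was 291 to 409 in Sham and 482 to 748 in TAC hearts (log2 fold change 0.73, standard error 0.11, adjusted p = 0.00673).

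Matrix genes had mostly positive log2 fold changes, and how many passed differed between tools. Of 18 collagen genes, 17 had a positive log2 fold change, with a median of 0.57, and Col8a1 and Col5a2 rose with limma. With edgeR 2 of the 18 rose and with DESeq2 4. Col8a1, a short-chain collagen of vessel walls and scars, was 786 to 1648 in Sham and 1790 to 5993 in TAC hearts (log2 fold change 1.41, standard error 0.32, adjusted p = 0.0413). Col5a2, which takes part in starting collagen fibrils, was 1056 to 2465 and 2367 to 5313 (log2 fold change 1.06, adjusted p = 0.0788). The log2 fold change of Col1a1, the main fibrillar collagen, was 0.82 (adjusted p = 0.231), with Sham replicate 6 at 13189 above 4 TAC hearts. Of 38 matricellular proteins and matrix enzymes, 35 had a positive log2 fold change, with a median of 0.69. With limma 2 rose, with edgeR 6 and with DESeq2 8. Those called by limma were Mfap5, a microfibril protein (1.197, adjusted p = 0.0928), and Sparc, a collagen-binding glycoprotein (0.72, adjusted p = 0.0898). Both lost the call without TAC replicates 2 and 4 (adjusted p = 0.156 and 0.167). Postn, the periostin gene of activated fibroblasts, ran from 1377 to 4131 in Sham and from 3093 to 20738 in TAC hearts. Its log2 fold change was 1.70 (adjusted p = 0.103), and 2.05 without TAC replicates 2 and 4 (adjusted p = 0.0765). With all hearts its adjusted p was 0.0690 from edgeR and 0.0219 from DESeq2. Vcan, Fbln2 and Emilin1, which are proteins of the same matrix outside these lists, rose by 0.89, 0.74 and 0.79. Emilin2, also outside these lists, went the other way and fell by 0.73 (adjusted p = 0.00900). It was 2045 to 2458 in Sham and 1141 to 1586 in TAC hearts, without overlap. These genes were singled out after their values were seen.

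The matrix response was uneven over the hearts. The mean log2 value over the 38 matricellular and enzyme genes was 10.8, 10.7, 11.2 and 10.4 in TAC replicates 1, 4, 5 and 6. It was 9.67 and 9.66 in TAC replicates 2 and 3, within the Sham range of 9.03 to 10.004. The list's median log2 fold change was 1.14 within library set 1 and 0.14 within set 2, and that of the collagens was 0.84 and 0.15. In these bulk hearts, more fibroblasts and more RNA per fibroblast cannot be told apart. None of the 5 fibroblast markers passed with limma, edgeR or DESeq2, 2 were higher at an unadjusted p under 0.05, and their summed level was 19683 to 33241 in Sham and 24011 to 41889 in TAC hearts. Their part in the matrix result was not tested.

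**Figure D4:**
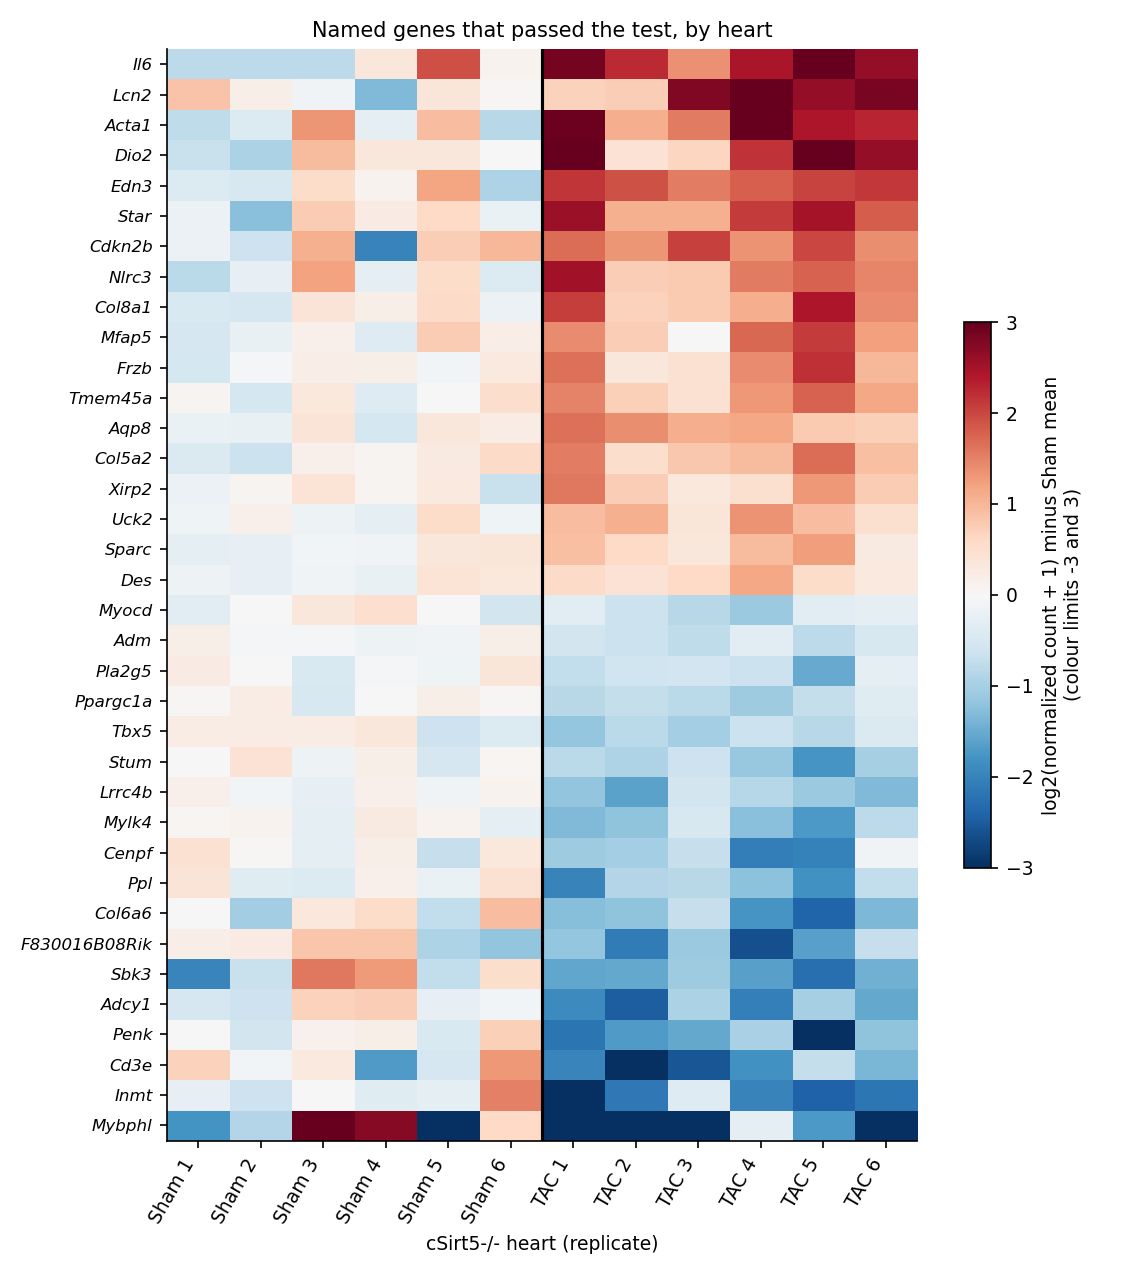
Log2(normalized count + 1) minus the mean of the 6 Sham hearts, for the 36 named genes that passed the test (lines) in each cSirt5-/- heart (columns); red is above and blue below the Sham mean, with colours ending at −3 and 3. TAC replicates 1 and 5 are the darkest for Dio2, Col8a1 and Frzb, TAC replicates 2 and 3 are pale for most matrix genes, and Lcn2 is dark in TAC replicates 3 to 6.

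Of 31 measured acute phase and innate inflammation genes, Lcn2 and Il6 rose. Lcn2, a secreted iron-binding protein of neutrophils and stressed epithelium, was 26.0 to 121 in Sham hearts. In TAC replicates 1 and 2 it was 107 and 111, and in replicates 3 to 6 it was 464, 1126, 417 and 484. TAC replicates 1 and 2 thus lay within the Sham range. These 2 are also the TAC hearts of the low animal-number series, and replicates 3 to 6 are those of the middle series. The part of the series in this split was not tested. The log2 fold change of Lcn2 was 2.29 (standard error 0.51, adjusted p = 0.0369). Il6, the interleukin 6 gene, rose at a very low level, with normalized counts of 0 to 5.63 in Sham and 3.45 to 17.9 in TAC hearts (log2 fold change 2.499, adjusted p = 0.0329). Il6 did not pass with edgeR (adjusted p = 0.120). The other 29 genes did not pass with limma, and the list's median log2 fold change was 0.33. With edgeR 2 of the 31 rose and with DESeq2 6. At an unadjusted p under 0.05, 10 were higher and 3 lower, where 2772 of all 24239 genes reached that limit in either direction. The neutrophil markers S100a8 and S100a9 had a summed level of 5.90 to 35.8 in Sham hearts and 7.13 to 321 in TAC hearts, high in TAC replicates 3 to 6 as for Lcn2. Neither passed with limma (adjusted p = 0.237 and 0.299), 1 rose with edgeR and both with DESeq2, and their part in the Lcn2 result was not tested. Interferon and antigen presentation genes had a median log2 fold change of −0.09, and 0 of 26 passed with limma or edgeR. With DESeq2 1 fell, and 3 were lower at an unadjusted p under 0.05. Cd3e, a T cell receptor subunit, fell by 1.98 on the log2 scale at normalized counts of 2.36 to 25.9 in Sham and 0 to 5.66 in TAC hearts (adjusted p = 0.0542). Its call was lost without TAC replicates 2 and 4 (adjusted p = 0.156). Cd79a, listed with it as a marker of T and B cells, had a log2 fold change of 0.023 and was not called.

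For Mylk4 and Lrrc4b, all 6 TAC hearts lay below the lowest Sham heart. Mylk4, a myosin light chain kinase family gene of striated muscle, was 5468 to 8117 in Sham hearts (median 7147) and 2028 to 4815 in TAC hearts (median 2887). It fell by 1.13 on the log2 scale (standard error 0.20, adjusted p = 0.0197), by 1.08 without TAC replicates 2 and 4, and by 1.29 and 0.99 within the library sets. Lrrc4b, a synaptic adhesion protein, was 506 to 668 and 195 to 409, and fell by 1.11 (adjusted p = 0.0251). Both also passed in the fit on the 12 cSirt5-/- libraries alone (adjusted p = 0.0476 and 0.0321), which called 53 of the 163 genes. Of the called genes above, Dio2, Nlrc3, Frzb, Xirp2 and Des did not pass in it (adjusted p = 0.132, 0.121, 0.109, 0.147 and 0.249). Neither did Lcn2, Mfap5, Sparc and Cd3e (adjusted p = 0.1002, 0.135, 0.130 and 0.210). Vcan, Fbln2 and Emilin1 also failed in that fit (adjusted p = 0.1002, 0.134 and 0.1008). The window before the start of Mylk4 (chr13:32783965-32784214, minus strand, GRCm38.p6) is shown beside those of the genes that rose, with no match to the 3 motifs.
Mylk4: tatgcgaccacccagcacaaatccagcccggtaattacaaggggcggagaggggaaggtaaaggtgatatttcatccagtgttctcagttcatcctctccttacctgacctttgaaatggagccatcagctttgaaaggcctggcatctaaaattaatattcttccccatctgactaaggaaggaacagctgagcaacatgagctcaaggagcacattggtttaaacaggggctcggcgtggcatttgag
The absence of these letters covers the 250 bases shown and says nothing of the factors.

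Penk, the proenkephalin precursor of opioid peptides, was 206 to 491 in Sham (median 312) and 30.2 to 152 in TAC hearts (median 97.4). It did not overlap between groups and fell by 1.81 on the log2 scale (standard error 0.42, adjusted p = 0.0437). Adcy1, an adenylyl cyclase, was 95.5 to 245 and 25.4 to 75.0, also without overlap, and fell by 1.65 (adjusted p = 0.0429). Its adjusted p was 0.150 without TAC replicates 2 and 4, and in control hearts its log2 fold change was −0.57 (adjusted p = 0.439). The interaction for Adcy1 was −1.09 (adjusted p = 0.517), so a difference between genotypes was not shown. Periplakin (Ppl), a cytoskeletal linker, fell by 1.25 (adjusted p = 0.0324), and Stum by 1.04 (adjusted p = 0.0349), with no overlap in either. Inmt, a methyltransferase of the lung and heart, was 339 to 1486 in Sham hearts and 57.1 to 397 in TAC hearts, and fell by 2.05 (adjusted p = 0.0207). TAC replicate 3, at 397, lay within the Sham range for Inmt, and the other 5 TAC hearts lay below it. Col6a6, a collagen VI chain outside the list, fell by 1.45 (adjusted p = 0.0425), Cenpf, a kinetochore protein, by 1.16 (adjusted p = 0.0905), and F830016B08Rik by 1.56 (adjusted p = 0.0445). Without TAC replicates 2 and 4, the adjusted p of Cenpf was 0.224 and that of F830016B08Rik 0.176.

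A group of nerve and myelin genes was picked out after the values were seen. L1cam, an axonal adhesion protein, was 121 to 188 in Sham and 51.7 to 110 in TAC hearts, and fell by 0.98 (adjusted p = 0.0324). Mbp, the myelin basic protein gene, was 87.3 to 194 and 53.5 to 73.9 (log2 fold change −0.92, adjusted p = 0.0588). Mbp did not pass without TAC replicates 2 and 4 (adjusted p = 0.108) or with the mean of 4 atrial markers as a covariate (adjusted p = 0.267), and neither L1cam nor Kcna2 passed with that covariate (adjusted p = 0.164 and 0.218). Kcna2, a potassium channel of axons, was 74.5 to 196 and 30.2 to 65.3 (log2 fold change −1.24, adjusted p = 0.0429). None of the 3 overlapped between groups. In control hearts the log2 fold change of L1cam was −0.05 (adjusted p = 0.946), and the interaction was −0.93 (adjusted p = 0.245), so a difference between genotypes was not shown.

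Regulators of mitochondrial metabolism were represented by Ppargc1a, the PGC-1alpha co-activator of mitochondrial biogenesis, which alone of 22 listed genes passed. It was 2617 to 4263 in Sham hearts (median 3748) and 1737 to 2860 in TAC hearts (median 2161). TAC replicate 6, at 2860, was the one TAC heart above a Sham heart, replicate 3. Ppargc1a fell by 0.75 on the log2 scale (standard error 0.14, adjusted p = 0.0207), by 0.67 without TAC replicates 2 and 4, and by 0.48 and 0.96 within the library sets. Genes downstream in fuel oxidation had log2 fold changes nearer to 0. Of 38 genes of fatty acid uptake and oxidation, 0 passed with limma, edgeR or DESeq2, 1 was higher and 8 lower at an unadjusted p under 0.05, and the median was −0.12. In control hearts 19 of the 38 fell, with a median of −0.59, and the interaction was called for 1 gene, the acyl-CoA thioesterase Acot1 (1.78, adjusted p = 0.0868). Hadha, the trifunctional protein subunit of beta-oxidation, was 32871 to 40439 in Sham and 27045 to 36806 in TAC hearts (log2 fold change −0.28, adjusted p = 0.378). For Cpt1b, which controls entry of fatty acids into mitochondria, the log2 fold change was −0.29 (adjusted p = 0.604), and for Pdk4, a brake on glucose oxidation, −0.09 (adjusted p = 0.944).

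No gene passed with limma, edgeR or DESeq2 among 23 of the tricarboxylic acid cycle (median −0.13, 4 lower and 0 higher at an unadjusted p under 0.05) or 53 nuclear-encoded genes of the respiratory chain (median −0.05, 0 in either direction). The 13 mitochondrially encoded genes all had a negative log2 fold change, with a median of −0.59. None passed with limma or edgeR, 3 fell with DESeq2, and 5 were lower at an unadjusted p under 0.05. Their share of reads was 21.4% ± 4.63 (SD, n = 6) in Sham and 16.9% ± 4.89 (SD, n = 6) in TAC hearts (p = 0.139, two-sided exact permutation test over all labelings). Among 47 genes of purine and pyrimidine metabolism, Uck2 alone passed with limma, and 12 were higher and 3 lower at an unadjusted p under 0.05. With edgeR 1 of the 47 rose and with DESeq2 1. Uck2, the uridine-cytidine kinase of pyrimidine salvage, was 1299 to 2302 in Sham and 2041 to 4040 in TAC hearts (log2 fold change 0.85, adjusted p = 0.0344, and 0.122 without TAC replicates 2 and 4). Adk, Pnp and Nt5e, of adenosine and purine turnover, had log2 fold changes of 0.13, 0.43 and 0.04 (adjusted p = 0.582, 0.342 and 0.939).

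**Figure D5:**
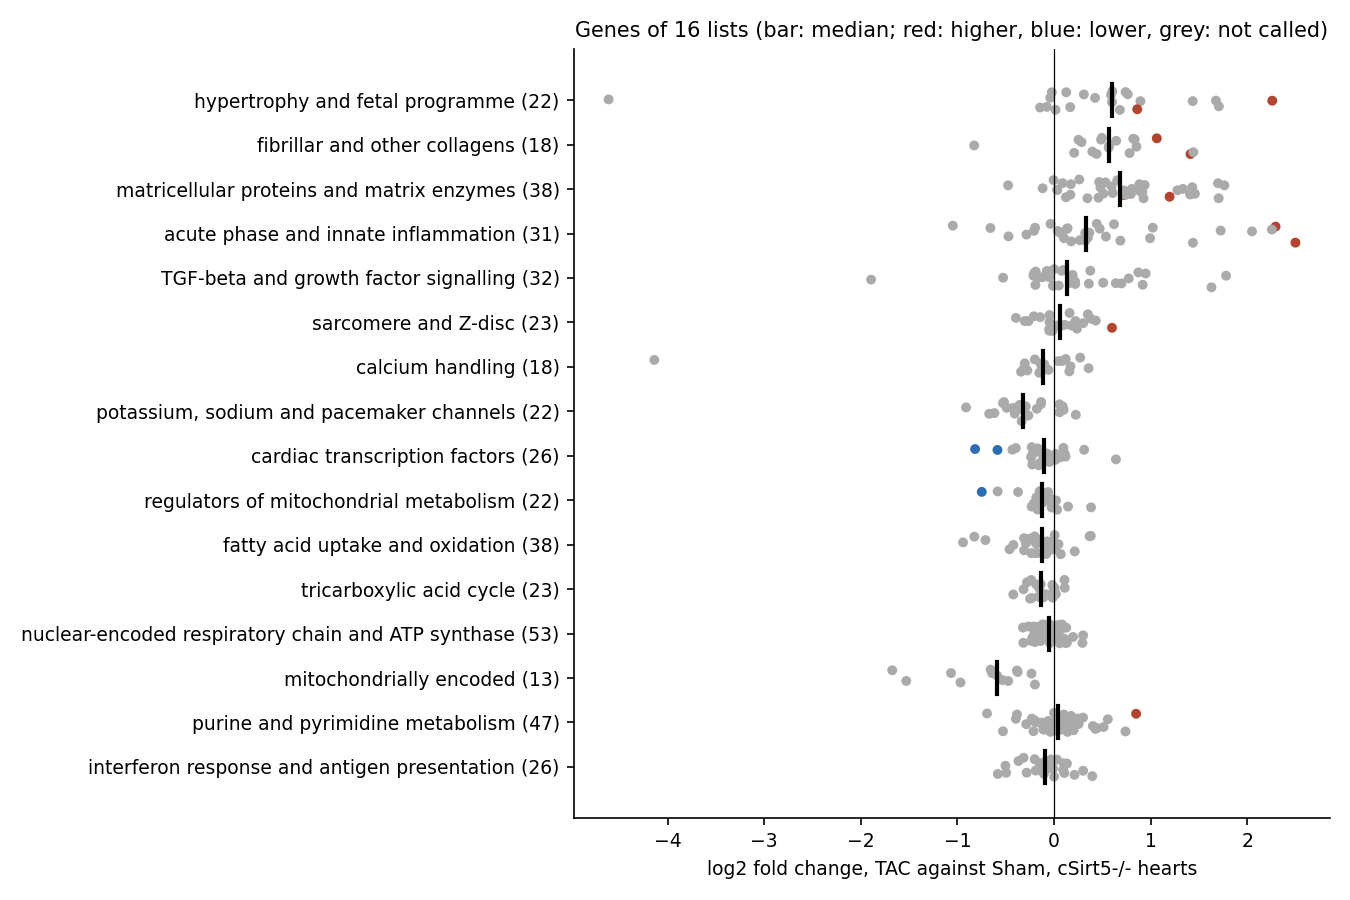
Log2 fold change (TAC against Sham, cSirt5-/- hearts) of the genes of 16 lists, with the number of measured genes in brackets; each point is a gene, black bars are medians, and red and blue points passed the test. Medians ran from −0.59 for mitochondrially encoded genes to 0.69 for matricellular proteins and matrix enzymes.

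Among sarcomere, calcium handling and channel genes, Des alone passed. Sarcomere genes had a median of 0.06, and Myh6, the adult myosin heavy chain, changed by −0.26 on that scale without passing (adjusted p = 0.743). TAC replicate 5 held 463696 of Myh6, where the other 11 hearts held 716811 to 1032830. Atp2a2, the calcium pump of the sarcoplasmic reticulum, was 398947 to 406029 in Sham hearts and spread from 255073 to 410046 in TAC hearts (log2 fold change −0.31, adjusted p = 0.583). Among 22 potassium, sodium and pacemaker channel genes, 17 had a negative log2 fold change, with a median of −0.32, but none fell by more than 1.5-fold at an adjusted p under 0.1 with limma or edgeR. With DESeq2 1 fell, and 12 were lower at an unadjusted p under 0.05. Kcnj11, the pore of the cardiac ATP-sensitive potassium channel, did not overlap (3909 to 4501 and 2780 to 3864) at a log2 fold change of −0.32 (adjusted p = 0.0733), below the fold limit.

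2 of 26 cardiac transcription factors fell. Tbx5, a T-box factor of heart development, was 486 to 948 in Sham and 331 to 553 in TAC hearts and fell by 0.82 (adjusted p = 0.0324). Myocd, the co-activator of serum response factor in muscle, fell by 0.59 (adjusted p = 0.0760, and 0.237 without TAC replicates 2 and 4). Some Sham hearts also held more RNA of atrial cardiomyocytes. Myl7, the atrial light chain, was 652, 5554, 4146 and 692 in Sham replicates 2, 3, 4 and 6 and 16.8 and 3.38 in replicates 1 and 5. In TAC hearts Myl7 was 1141 in replicate 4, 150 in replicate 5 and 0 to 3.27 in the other 4, and Sln, another atrial marker, was at 0 in Sham replicate 1 and TAC replicates 2, 3 and 6. Of 5 atrial markers none passed with limma or DESeq2 and 1 fell with edgeR, while 1 was higher and 3 lower at an unadjusted p under 0.05, and their summed level, mostly Nppa, was 8428 to 55292 in Sham and 33566 to 103300 in TAC hearts. Mybphl, a myosin-binding protein of the atria, fell by 4.06 (adjusted p = 0.0788) and was, like Myl7, highest in Sham replicates 3 and 4, with 774 and 536, against 0 to 66.5 in TAC hearts. It passed without TAC replicates 2 and 4 (adjusted p = 0.0633), whereas Sbk3 did not (adjusted p = 0.150). Sbk3, a kinase gene that fell by 1.58, was likewise highest in Sham replicates 3 and 4, with 1098 and 893. With the mean of 4 atrial markers as a covariate, chosen after the data were seen, the log2 fold changes were −1.49 for Mybphl, −0.84 for Sbk3 and −0.66 for Tbx5. None of these 3 passed with the covariate (adjusted p = 0.429, 0.441 and 0.164). Mylk4, Ppargc1a, Edn3 and Acta1 passed in that fit (adjusted p = 0.0234, 0.0168, 0.0576 and 0.0678). Col8a1, Col5a2, Penk and Adcy1, which are not atrial markers, did not (adjusted p = 0.102, 0.110, 0.141 and 0.113). Of the 163 called genes, 44 were also called with this covariate.

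A single cell cycle gene of 26 rose. Cdkn2b, the p15 inhibitor of cyclin-dependent kinases, was 1.18 to 17.2 in Sham and 20.7 to 35.3 in TAC hearts without overlap (log2 fold change 1.63, adjusted p = 0.0928, and 0.122 without TAC replicates 2 and 4). Lists of the circadian clock, immediate early genes, heat shock proteins, the integrated stress response, antioxidant enzymes, glycolysis, autophagy, endothelial identity and lipid storage held 0 genes called by limma, and each held 0 to 6 higher and 0 to 4 lower genes at an unadjusted p under 0.05. With edgeR 1 glycolysis gene rose. With DESeq2 1 glycolysis and 1 endothelial gene rose and 1 immediate early gene fell.

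Set against control hearts, 44 of the genes that rose here also rose there and 60 of those that fell also fell. The remaining 59 of the 163 were called here and not there. The interaction term passed for 22 genes (0.0908% of 24239), of which 2 were among the 163 and 1 among those 59. That gene was Adm, which encodes the vasodilator adrenomedullin. Adm was 173 to 219 in cSirt5-/- Sham and 111 to 153 in cSirt5-/- TAC hearts, without overlap, and 122 to 169 and 145 to 268 in control hearts. It fell by 0.60 in cSirt5-/- hearts (adjusted p = 0.0589) with a log2 fold change of 0.37 in controls (adjusted p = 0.119), and the interaction was −0.96 (adjusted p = 0.0868). Pla2g5, a secreted phospholipase A2, fell in both genotypes, by 0.72 in cSirt5-/- (adjusted p = 0.0843) and by 2.17 in control hearts, with an interaction of 1.45 (adjusted p = 0.0290). In cSirt5-/- hearts its call was lost without TAC replicates 2 and 4 (adjusted p = 0.118) and with edgeR (adjusted p = 0.101). Its level was 348 to 825 in cSirt5-/- TAC and 161 to 348 in control TAC hearts.

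The TAC hearts differed in how far they departed from the Sham hearts. Of the 61 genes that rose, 58 lay above all Sham hearts in TAC replicate 5, 57 in replicate 4 and 56 in replicate 1, but 45 in replicate 2 and 32 in replicate 3. Of the 102 genes that fell, 75 to 88 lay below all Sham hearts in each TAC heart. The genes were called on these hearts, so the counts describe them and test nothing. TAC replicates 2 and 4, both with Sirt5 at control level, held 45 and 57 of the 61 genes. Among the 10934 genes averaging 100 or more, the middle value of the SD on the log2 scale was 0.244 in cSirt5-/- TAC and 0.196 in cSirt5-/- Sham hearts, and 0.176 and 0.149 in the matching control groups.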

How the data were processed

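Whole-heart RNA was made into directional libraries and, per the labels and the methods, trimmed with Trim Galore and aligned with STAR to mm39 (GRCm39). The counting program is not given in the sources used here. The authors deposited a signal per gene, reads divided by DESeq2 size factors. Dividing each library by its smallest value above 0 gave whole reads for 100% of values, to within 2.5e-08, so reads were recovered. Columns were mapped by the animal number in each label. Deposited columns of fold changes, statistics and p-values were not used.

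Log2(normalized count + 1) of all 24 libraries was fitted with limma 3.58.1 (R 4.3.3), a mean-variance trend and 1 term per group, and every adjusted p is Benjamini-Hochberg over 24239 genes from that fit unless named otherwise. All groups share 1 estimate of the spread per gene, although hearts spread more in the cSirt5-/- than in the control groups. Standard errors and p-values of the cSirt5-/- comparison therefore rest partly on the control hearts. Called means an adjusted p under 0.1 and more than 1.5-fold. The pseudocount understates changes of low genes. edgeR 4.0.16 and DESeq2 1.42.0 on the recovered reads were alternatives.

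The 12 highest and 12 lowest called genes with a mean of at least 100, up to 4 called genes of each list, Sirt5, a fixed set of cardiac, matrix and purine genes whatever their result, and called genes with a called interaction were named. The members, lists and rules were chosen with earlier results of these data known. The listed genes Orm1, Hand1, Ucp1 and Scgb1a1 were not analysed here. Promoter windows are from the RefSeq table for GRCm38.p6, and other coordinates are those of the deposited table in GRCm39. Calculations used Python 3.11.15 with pandas 2.3.3, scipy 1.17.1 and matplotlib 3.10.9.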

Additional observations from a re-analysis of the deposited data

Results flagged for a closer look

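Within groups of 6 hearts, 6 of 104 groups of named genes had 1 heart far from the rest (the gap to its nearest neighbour took most of the group's range on the log2 scale, by Dixon's test), and chance gives about 1 in 20. Sham replicate 6 held 1486 normalized counts of Inmt and Sham replicate 3 held 259.3 of Sirt5. Sham replicate 3 was the lowest for Ppargc1a, with 2617. TAC replicate 4 was the highest for Des, with 158771. TAC replicate 5 was the lowest for Myh6, with 463696, and TAC replicate 3 for Pdk4, with 4600.

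The TAC effect differed between genotypes by the interaction term for 2 genes that were also called in cSirt5-/- hearts. For Adm the effect in cSirt5-/- minus that in control hearts was −0.96 on the log2 scale (limma adjusted p = 0.0868), with 6 of 6 TAC hearts below all Sham hearts in cSirt5-/- mice. Without TAC replicates 2 and 4 it was −1.02 and did not pass. Over the 8 settings examined for the interaction, its adjusted p ran from 0.00255 to 0.198. For Pla2g5 the interaction was 1.45 (adjusted p = 0.0290), and its adjusted p ran from 0.000268 to 0.302 over 8 such settings.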

How the results depend on the processing

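All 163 calls kept their direction under every alternative that measured them. The alternatives reuse the hearts on which the genes were called, so the kept direction tests nothing. The counts did not hold as well. Against 61 higher and 102 lower genes, leaving out 1 heart gave 11 to 104 and 22 to 135. The 12 cSirt5-/- libraries alone gave 20 and 39. Within library set 1 no gene passed in either direction (0 and 0), and within set 2 there were 5 and 15. A pseudocount of 10 gave 38 higher genes, array weights 36 and 66, and the library set as a covariate 97 higher. The animal-number series as a covariate gave 434 and 293, with 128 of the 163 genes among them. The DESeq2 Wald test called 294 genes, about 1.2e+02 higher and 178 lower. An adjusted p under 0.1 with no fold limit gave 139 and 174, and one under 0.05 gave 21 and 46. Chosen after the data were seen, the 12 libraries with the set as a covariate gave 5 and 10, and with array weights 40 higher. Those libraries without TAC replicates 2 and 4 gave 11 and 17, the middle animal-number series alone gave 1 and 9, and the atrial covariate 25 and 32. The edgeR test, at 62 and 84, other filters, TMM scaling and size factors without mitochondrial genes stayed within 1.5 times.

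The log2 fold change reversed only for named genes that had not passed. Of 1218 values of the 36 that had, 775 kept the call and 443 lost it. Without TAC replicates 2 and 4, Sirt5 was at −0.14 and Nt5e at −0.028, in the 24-library and in the 12-library fit. Without Sham replicate 3 as well, Pdk4 was at 0.067. Within set 1 Sirt5 was at −0.26. Within set 2 Ccn2 was at −0.012, Pdk4 at 0.44 and Nt5e at −0.063. With the set as a covariate in 12 libraries Pdk4 was at 0.12, and with the atrial covariate at 0.081. In the middle series Cpt1b was at 0.056 and Pdk4 at 0.043. Leaving out 1 heart, Pdk4 ranged up to 0.18 and Nt5e down to −0.048. The cause of these changes was not tested.

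Replicate numbers did not pair the hearts: deviations of same-numbered Sham and TAC hearts correlated at −0.43 to 0.06 over 10934 genes. With the number as a replicate block, 57 genes were higher and 76 lower. Counting error is small at 22.5 to 32.8 M reads, so the number of hearts and their spread limit the comparison, and genes with a mean under 10 are the least certain.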
